A study of Mus musculus with 6 samples.

Results

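The electrical genes described here are 8 genes of the embryonic heart: the pacemaker channel gene Hcn4, the calcium channel pore genes Cacna1c, Cacna1d, Cacna1g and Cacna1h, the calcium channel subunit gene Cacnb2, and the Popeye genes Popdc2 and Bves. They were chosen by symbol, each symbol matched 1 Ensembl ID, and they are 8 of the 30323 IDs in the count table. The working name of the set also speaks of sodium channels, but none of the 8 encodes one, so sodium channel genes are given below from a separate list. RNA came from whole mouse hearts at embryonic day 9.5. The 3 control libraries are labelled C57BL/6 ctrl, and the 3 MCKO libraries are labelled as a Cdc42 knockout that the design text places in the myocardium. The labels and design text do not state the Cre driver, the floxed allele, the strain of the MCKO embryos or whether controls carry Cre. Cdc42 is a small GTPase that organises actin and cell polarity.

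An action potential of the early heart tube starts where pacemaker currents slowly depolarise the cell, and it is carried by calcium and sodium entry. HCN channels pass the hyperpolarisation-activated pacemaker current. T-type calcium channels open at low voltages and contribute to the slow depolarisation, and L-type channels open at higher voltages and couple the action potential to contraction. Popeye proteins are membrane proteins of muscle that bind cyclic AMP, and mice lacking Popdc2 or Bves develop disturbed sinus node function. In the embryo Hcn4 first marks early differentiating cardiomyocytes and later the sinus node region.

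Depth ran from 19256840 to 32169289 estimated counts among the control libraries and from 23883877 to 34246477 among the MCKO libraries. Values are given as CPM, the count scaled to the library total. Log2 fold changes come from a fit that also scales libraries by TMM factors, so they can differ from ratios of CPM. Cdc42 itself was at 377.3 to 423.7 CPM in controls and 238.5 to 247.6 CPM in MCKO. All 10 heart muscle markers checked were present in every library, with summed levels of 37610 to 41240 CPM in controls and 44490 to 46080 CPM in MCKO, so the labelled tissue and its markers go together. In bulk RNA, fewer cells of a type and less RNA per cell cannot be told apart. The labels give no batch, so a batch that follows the groups cannot be told apart from the genotype, and they do not tie libraries to separate litters, so p-values measure only the spread between these samples.

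Of the 8 genes, 4 were higher in MCKO, 3 were lower and 1 was not called. Calls are adjusted p-values below 0.05 in edgeR's quasi-likelihood test over 14697 genes, and the test is of MCKO against control. Across all tested genes 58.4% were called, 29.3% higher and 29.1% lower, and the groups did not overlap for 65.5%. Both counts for the 8 genes, 7 called and 7 without overlap, therefore stand against a background in which most genes were called. The median log2 fold change of the 8 genes was 0.20, beside 0.00057 for all tested genes. No member had a near-identical copy, taken as 95% identity over 80% of the transcript length.

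**Figure D1:**
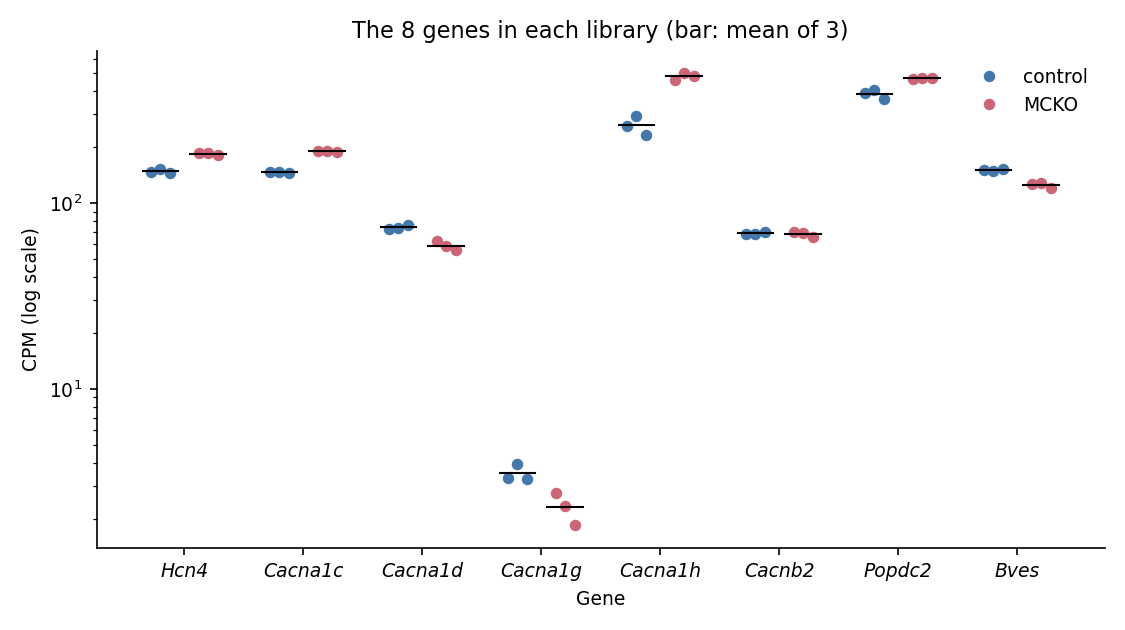
CPM of each of the 8 genes (log axis) in 3 control and 3 MCKO libraries, with each library as a point and the group mean as a bar. Cacna1h shows the widest separation, from 231 to 294 CPM in controls and from 460 to 499 CPM in MCKO, while the Cacnb2 points of the groups overlap.

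Hcn4, which encodes the main pacemaker channel of the embryonic heart, was higher in MCKO. It stood at 148, 153 and 145 CPM in the control libraries and at 186, 186 and 181 CPM in the MCKO libraries. Every MCKO library was above every control library, and the values within each group were close together. The log2 fold change, MCKO over control, was 0.37 (SE 0.040, edgeR adjusted p = 4.516e-05). Hcn4 (ENSMUSG00000032338) is a protein-coding gene on the plus strand of chromosome 9 at 58823412 to 58863175 in GRCm38, a start downstream of the RefSeq window shown here. Its promoter is shown because Hcn4 and Popdc2 rose by like amounts and each has a single promoter in the RefSeq table. The window, from RefSeq on GRCm38.p6, is chr9:58822699-58822998 on the plus strand, with 250 bases before the RefSeq start and 50 from it on. Capitals mark the one match to a motif searched, the T-box motif AGGTGT on the opposite strand at positions -233 to -228 from the start.
Hcn4: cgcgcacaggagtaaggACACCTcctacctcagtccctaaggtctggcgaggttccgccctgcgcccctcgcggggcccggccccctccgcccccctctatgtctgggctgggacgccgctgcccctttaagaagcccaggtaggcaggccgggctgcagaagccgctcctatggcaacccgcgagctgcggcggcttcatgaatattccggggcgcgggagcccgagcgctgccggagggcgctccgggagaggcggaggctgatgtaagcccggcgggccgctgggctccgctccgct

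Other HCN genes were far lower. Hcn2 rose from 0.405 ± 0.067 to 1.28 ± 0.028 CPM (SD, n = 3 each). Hcn3 was not called, at 1.46 ± 0.14 and 1.33 ± 0.40 CPM. Per kb of exon, Hcn4 held 96.5% ± 0.26 of the summed HCN level in controls and 96.8% ± 0.33 in MCKO, so the HCN transcripts of these hearts were nearly all Hcn4 in both groups.

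Of the L-type pore genes, Cacna1c rose while Cacna1d fell. Cacna1c, the pore gene of the main L-type channel of ventricular muscle, was at 147, 147 and 145 CPM in controls and at 191, 189.8 and 189 CPM in MCKO. It had the smallest spread of the 8 genes relative to its level, and the groups were far apart against it (log2 fold change 0.44, SE 0.036, edgeR adjusted p = 8.265e-06). Cacna1d, whose channel opens at lower voltages and serves sinus node pacemaking, was at 72.1, 73.7 and 75.9 CPM in controls and at 62.3, 58.7 and 55.6 CPM in MCKO. All MCKO values lay below all control values (log2 fold change -0.27, SE 0.052, edgeR adjusted p = 0.0018). Per kb of exon, Cacna1c stood at 1.22, 1.19 and 1.14 times Cacna1d in controls and at 1.82, 1.93 and 2.03 times Cacna1d in MCKO. The size of these ratios depends on the length used. Per kb of the longest transcript, mean Cacna1c and Cacna1d were at 11.12 and 7.655 CPM in controls and at 14.43 and 6.094 CPM in MCKO. Cacna1c (ENSMUSG00000051331) spans 118587240 to 119196418 of chromosome 6, minus strand. Cacna1d (ENSMUSG00000015968) spans 30039939 to 30491455 of chromosome 14, minus strand, and 1 of its exons shares 589 bases with Chdh on the opposite strand, a gene at 0.833 ± 0.053 and 1.04 ± 0.16 CPM.

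The T-type pore genes also parted. Cacna1h was at 261, 294 and 231 CPM in controls and at 460, 499 and 482 CPM in MCKO. This was the largest change among the 8 genes (TMM-scaled log2 fold change 0.94, SE 0.084, edgeR adjusted p = 3.565e-05), and 12.9% of tested genes changed by more. The ratio of mean CPM, without TMM scaling, was 1.83. Cacna1g, the other T-type gene of heart, was far lower, at 3.30, 3.95 and 3.26 CPM in controls and 2.74, 2.33 and 1.84 CPM in MCKO. These values rest on 44 to 105 counts a library, and the groups did not overlap but lay close. The fall (log2 fold change -0.52, SE 0.17, edgeR adjusted p = 0.028) is the least secure of the 7 calls. It was lost in DESeq2 (adjusted p = 0.0821) and without control replicate 2, MCKO replicate 2 or MCKO replicate 3 (edgeR adjusted p = 0.0771, 0.0736 and 0.094), with log2 fold changes of -0.67 to -0.39 when 1 library was left out. Cacna1h (ENSMUSG00000024112) spans 25374285 to 25433783 of chromosome 17 and Cacna1g (ENSMUSG00000020866) 94408391 to 94474198 of chromosome 11, both minus strand.

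The pool of calcium channel pore transcripts held a larger share of Cacna1h in MCKO. Summed over the 10 Cacna1 genes per kb of exon, the level was 42.25 ± 3.36 CPM per kb in controls and 64.3 ± 1.97 CPM per kb in MCKO (SD, n = 3 each). Cacna1h made up 63.6, 65.8 and 60.7% of it in controls and 75.5, 77.0 and 77.1% in MCKO. Cacna1c went from 16.4% ± 1.2 to 13.95% ± 0.46 of the pool although its own CPM rose, and Cacna1d from 13.9% ± 1.4 to 7.26% ± 0.56. Cacna1g held 0.817% ± 0.038 and 0.355% ± 0.075. For each of these 4 shares the groups did not overlap, which gives an exact 2-sided permutation p of 0.1, the smallest that 3 against 3 allows, and 0.125 adjusted over the 10 shares. The shares rest on the annotated exon lengths, and the Cacna1h gain was 11.8 to 14.4 percentage points over the 8 alternatives tried.

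**Figure D2:**
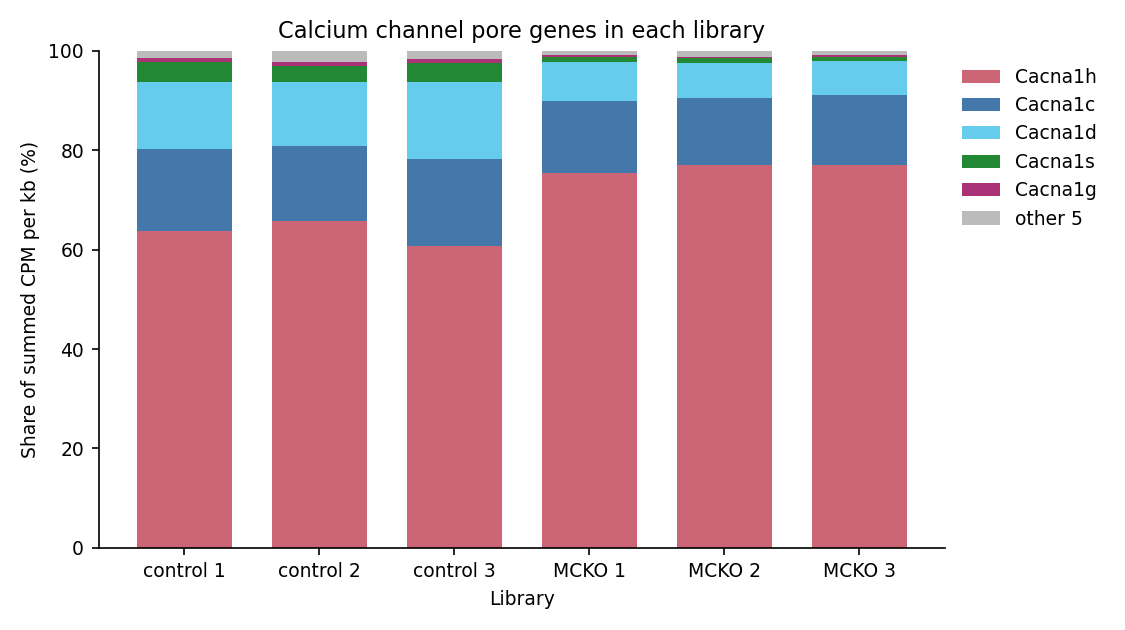
Share (%) of the summed CPM per kb of exon held by each calcium channel pore gene in the 6 libraries, as stacked bars. The Cacna1h part is 60.7 to 65.8% in the 3 control libraries and 75.5 to 77.1% in the 3 MCKO libraries, and the Cacna1d part is smaller in MCKO.

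Among the other pore genes, Cacna1s, the L-type pore of skeletal muscle, fell from 10.3 ± 0.75 to 3.88 ± 0.12 CPM (log2 fold change -1.35, SE 0.10, edgeR adjusted p = 4.466e-06). The skeletal muscle precursor markers Myod1, Myf5, Myog, Myf6, Pax3 and Pax7 summed to at most 0.312 CPM in any library, and each was at 0 in at least 1 library. Cacna1i, another T-type pore, rose from 0.324 ± 0.035 to 0.935 ± 0.209 CPM. Of the 10 pore genes, 9 were tested, 3 rose and 3 fell, with a median of -0.27. Neural markers were mixed in the same libraries, with 3 of 8 fallen, 2 risen and 3 not called. Their summed levels were 38.9 to 44.7 CPM in controls and 20.6 to 21.9 CPM in MCKO. Most of that drop was Tubb3, at 23.4 ± 2.9 and 4.39 ± 0.74 CPM, while Pax6 rose from 1.33 ± 0.32 to 4.23 ± 0.25 CPM. None of the 8 neural markers was at 0 in any library, and their part in the pore gene values was not tested.

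Cacnb2 encodes the beta subunit that brings L-type pores to the membrane in heart muscle, and it was not called. It was at 68.2, 68.0 and 69.7 CPM in controls and at 70.3, 69.3 and 65.6 CPM in MCKO, and the groups overlapped. The log2 fold change was 0.06, with a 95% interval of -0.04 to 0.16 (edgeR adjusted p = 0.298). Its direction turned to -0.0047 with library totals only. Cacnb2 (ENSMUSG00000057914) lies on the plus strand of chromosome 2 at 14603088 to 14987908. Of the 11 auxiliary subunit genes tested, 4 rose and none fell, with a median of 0.47. At an unadjusted p under 0.05 the number lower was 0 in edgeR and 0 in DESeq2, but 3 were called lower and 3 higher with the heart muscle scaling given below.

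The genes that rose there included 3 other beta subunits. Cacnb3 rose from 23.1 ± 2.9 to 36.8 ± 1.4 CPM and Cacnb1 from 4.11 ± 0.23 to 7.44 ± 1.02 CPM. Cacnb4, at 1.82 ± 0.28 and 2.54 ± 0.54 CPM, was called at an edgeR adjusted p of 0.0423, and that call was lost in 9 of 14 alternatives (adjusted p = 0.0423 to 0.297). The most abundant auxiliary gene, Cacna2d2, an extracellular subunit that raises current density, was at 399, 425 and 404 CPM in controls and at 569, 568 and 562 CPM in MCKO (log2 fold change 0.53, SE 0.040, edgeR adjusted p = 4.595e-06). Cacna2d1, its counterpart in adult heart muscle, was not called, at 30.3 ± 2.4 and 28.1 ± 1.4 CPM.

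The Popeye genes went opposite ways. Popdc2 was at 391, 405 and 364 CPM in controls and at 466, 469 and 472 CPM in MCKO, with no overlap and a wider spread among controls than among MCKO (log2 fold change 0.34, SE 0.047, edgeR adjusted p = 0.000217). Bves was at 152, 148 and 152 CPM in controls and at 126, 129 and 121 CPM in MCKO, again without overlap (log2 fold change -0.20, SE 0.040, edgeR adjusted p = 0.0019). Per kb of exon Popdc2 was 5.02 ± 0.33 times Bves in controls and 7.32 ± 0.27 times Bves in MCKO. Popdc3, the remaining gene of the family, was not called, at 9.07 ± 0.60 and 8.46 ± 0.31 CPM. Popdc2 (ENSMUSG00000022803) lies on the plus strand of chromosome 16 at 38362209 to 38378216 and Bves (ENSMUSG00000071317) on the plus strand of chromosome 10 at 45335772 to 45372479. The promoter window of Popdc2 is chr16:38361940-38362239 on the plus strand, from the same RefSeq table. Its capitals mark the GATA factor motif AGATAA, read on the opposite strand at -156 to -151. An exon of Popdc2 shares 89 bases with Gm21987 on the same strand, a gene at 0.419 ± 0.186 and 0.403 ± 0.073 CPM.
Popdc2: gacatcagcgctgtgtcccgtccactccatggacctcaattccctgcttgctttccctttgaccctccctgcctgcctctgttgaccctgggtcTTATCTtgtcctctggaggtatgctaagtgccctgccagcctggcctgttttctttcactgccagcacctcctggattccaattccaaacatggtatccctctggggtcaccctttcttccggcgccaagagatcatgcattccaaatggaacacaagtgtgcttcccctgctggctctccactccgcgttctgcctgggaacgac

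Matches to 6 motifs were then looked for in the promoters. RefSeq windows of 300 bases were found for 5 of the 8 genes, 9 windows in all. Motifs for GATA factors (AGATAA or its variant TGATAA), NKX2-5 (CACTTNA), T-box factors (AGGTGT) and HIF (ACGTG), the MEF2 site and the CArG box of SRF were searched on both strands. The T-box motif stood in the Hcn4 window and in 1 of 3 Cacna1c windows, and in 13.7% of all 32851 promoters. The GATA motifs stood in the Popdc2 window and in 1 of 2 Cacna1d windows (18.6% of all promoters), the NKX2-5 motif at 2 places in 1 of 2 Cacnb2 windows (11.5%), and the HIF motif in 1 Cacna1c window (19.6%). No window held the MEF2 site or the CArG box, which stand in 0.557% and 1.63% of promoters. The counts do not show which of several starts of a gene was used.

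Known partners of the Popeye proteins were mixed. Cav3, the muscle caveolin that binds Popeye proteins, fell from 12.5 ± 0.84 to 3.84 ± 0.41 CPM (log2 fold change -1.65, SE 0.11, edgeR adjusted p = 2.416e-06). Vamp3, a vesicle fusion protein bound by Bves, fell from 122 ± 1.8 to 86.4 ± 0.50 CPM. Arhgef25, a guanine nucleotide exchange factor bound by Bves, was at 20.5 ± 1.7 and 25.3 ± 4.4 CPM and was called with overlapping groups (edgeR adjusted p = 0.0408). Kcnk2, a potassium channel regulated by Popeye proteins, was not called, at 2.18 ± 0.14 and 2.10 ± 0.48 CPM. The last pair of partners was named after its values were seen. With the 3 Popeye genes, 2 of these 7 genes rose and 3 fell, with a median of -0.04.

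Compared per kb of exon, Popdc2 stood highest of the 8 genes in both groups, at 164 ± 8.8 CPM per kb in controls and 199 ± 1.1 in MCKO. In controls Bves followed at 32.6 ± 0.47, then Cacna1h at 26.8 ± 3.2 and Hcn4 at 24.25 ± 0.68, whose ranges over libraries overlapped. Cacna1c at 6.91 ± 0.047, Cacna1d at 5.86 ± 0.15, Cacnb2 at 5.19 ± 0.071 and Cacna1g at 0.346 ± 0.038 CPM per kb came after. In MCKO Cacna1h was second at 49.2 ± 2.0, above Hcn4 at 30.1 ± 0.44 and Bves at 27.2 ± 0.87, and neighbours in that order did not overlap. With the longest transcript in place of all exons Cacnb2 stood above Cacna1c in controls. With that length the control ranges of Bves and Cacna1h overlapped, while those of Cacna1h and Hcn4 did not.

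The scaling of the libraries decided the call for 3 of the 8 genes. The heart muscle markers took 3.76 to 4.12% of a control library and 4.45 to 4.61% of an MCKO library. Of the 10, 5 were called higher, 0 lower and 5 not called in edgeR. At an unadjusted p under 0.05 the number lower was 0 in both edgeR and DESeq2. The largest log2 fold change of the 10 was 0.74, for Myh7, which rose from 6332 ± 449 to 10131 ± 306 CPM. Myh6 was not called, at 7623 ± 534 and 6980 ± 194 CPM. The scaling uses the summed counts of the 10 genes, so such abundant genes weigh most in it. The part of Myh7 in the calls on that scale was not tested. With libraries scaled to these 10 genes, the median of all tested genes moved to -0.26 and 23.4% of 9426 calls were higher, against 50.2% of 8587 with TMM. On that scale Cacna1h and Cacna1c were still higher, at 0.68 (SE 0.064, edgeR adjusted p = 2.32e-05) and 0.18 (SE 0.054, adjusted p = 0.0181). Hcn4 at 0.11 (adjusted p = 0.0823) and Popdc2 at 0.08 (adjusted p = 0.133) were no longer called. Cacnb2 was called lower at -0.20 (adjusted p = 0.0244), and Cacna1d at -0.53, Bves at -0.46 and Cacna1g at -0.78 were called lower as before. On that scale the Popeye list had 0 genes higher and 4 lower, the calcium pores 3 and 4, the sodium channels 3 and 2, and the transcription factors 3 and 6.

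**Figure D3:**
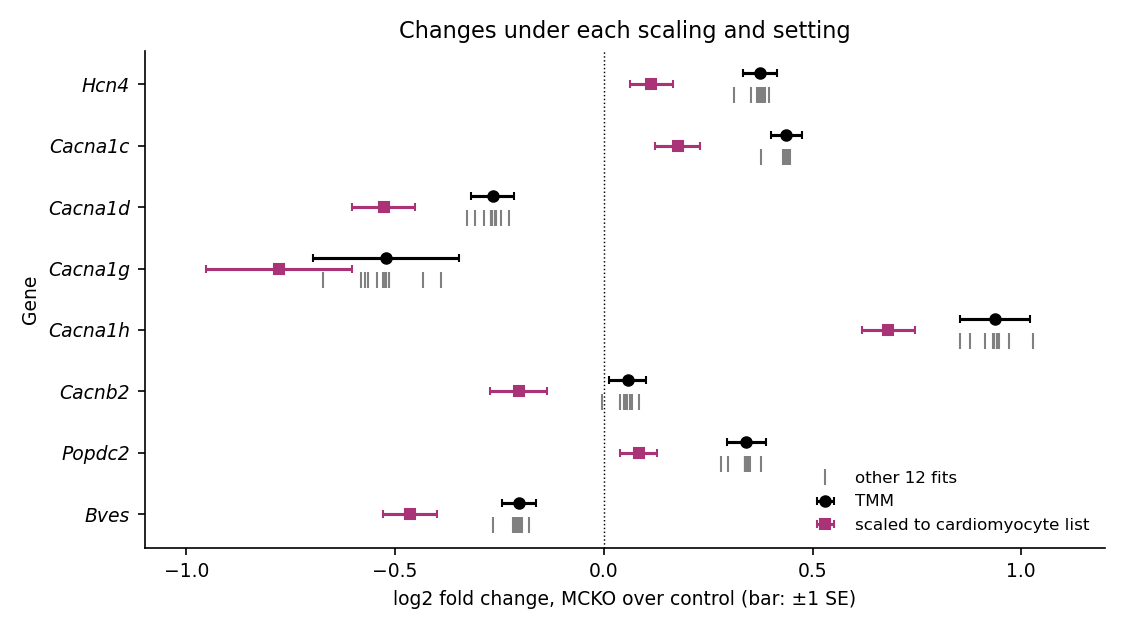
Log2 fold change of each gene, MCKO over control, from the TMM-scaled fit (circles, with 1 SE), with libraries scaled to the 10 heart muscle genes (squares, with 1 SE), and from 12 other fits (ticks). Cacna1h and Cacna1c stay above 0 and Cacna1d, Cacna1g and Bves below 0 in every fit drawn, while Cacnb2 lies on both sides.

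Sodium channels carry the fast upstroke of the action potential, and their genes, none of them among the 8, went both ways. Of 15 genes, 11 were tested, 4 rose and 2 fell, with a median of 0.10. The accessory subunit gene Scn4b was at 11.2, 9.71 and 10.1 CPM in controls and at 20.4, 22.9 and 23.3 CPM in MCKO (log2 fold change 1.16, SE 0.085, edgeR adjusted p = 3.69e-06). Scn4a, the pore of skeletal muscle, rose from 4.55 ± 0.52 to 6.71 ± 0.47 CPM. Named after their values were seen, Scn2b rose from 5.74 ± 0.022 to 7.69 ± 0.58 CPM and Scn10a fell from 3.21 ± 0.44 to 0.600 ± 0.572 CPM (not called in DESeq2), with 1 MCKO library at 0 for Scn10a.

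Regulators of the calcium channels included some of the largest changes near the 8 genes. Rrad, a small GTPase that binds beta subunits and restrains L-type current, rose from 99.2 ± 11.9 to 296 ± 17.3 CPM (log2 fold change 1.64, SE 0.089, edgeR adjusted p = 2.171e-06). Its relative Rem2 rose from 2.47 ± 0.12 to 4.64 ± 0.33 CPM. Stac2, an adaptor of L-type channels, rose from 0.849 ± 0.261 to 4.49 ± 0.44 CPM. Other genes of the same families, named after their values were seen, did not follow. Rem1 fell from 2.22 ± 0.29 to 0.917 ± 0.253 CPM. Stac, at 2 to 21 counts a library, fell from 0.559 ± 0.093 to 0.177 ± 0.106 CPM. Gem and Stac3 were not called. Of the 18 modulator genes, 8 rose and 7 fell, with a median of 0.07. With the heart muscle scaling given above, 4 were called higher and 8 lower.

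Transcription factors of the pacemaker and conduction regions did not move as one. Tbx18 and Shox2, factors of the sinus venosus and sinus node, fell in the libraries where Hcn4 rose. Tbx18 went from 63.1 ± 1.5 to 22.8 ± 0.93 CPM and Shox2 from 20.5 ± 1.9 to 10.1 ± 0.47 CPM. Isl1, another factor of this list, named after its values were seen, went the other way. It rose from 14.3 ± 0.79 to 17.2 ± 0.48 CPM. Tbx18 is also expressed in the proepicardium, whose other markers fell in 5 of 5 tested, with summed levels of 134.9 to 143.1 CPM in controls and 55.7 to 56.2 CPM in MCKO. Their part in the Tbx18 value was not tested. Tbx3, a repressor of chamber genes in the conduction system, rose from 24.95 ± 1.41 to 35.1 ± 2.5 CPM, and Tbx5 rose from 99.7 ± 2.5 to 144 ± 3.1 CPM. Of the 16 factors, 7 rose and 4 fell, with a median of 0.18. Among 9 genes of calcium cycling, most of them of internal stores, 4 rose and 4 fell, with a median of 0.17. The cell surface exchanger gene Slc8a1 is counted among those that rose.

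**Figure D4:**
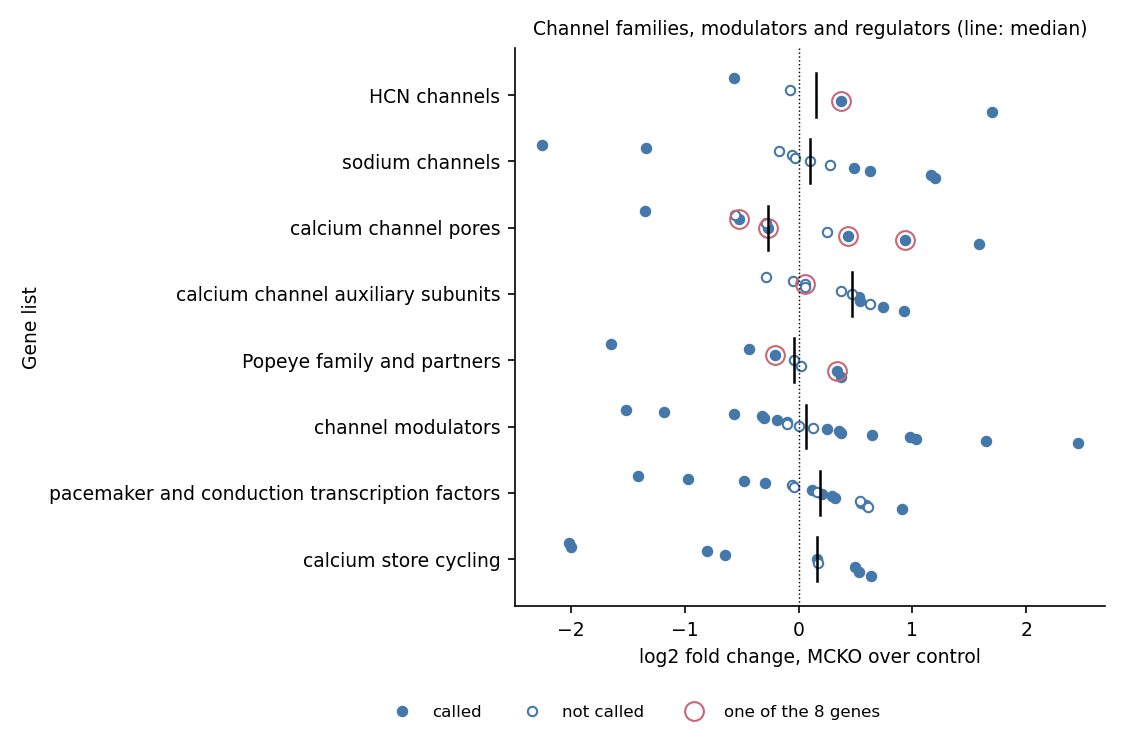
Log2 fold change, MCKO over control, of each tested gene in 8 lists, with filled points for called genes, open points for genes not called, rings around the 8 genes described and a line at each median. The medians lie between -0.27 and 0.47, and every list but the auxiliary subunits holds called genes on both sides of 0.

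Markers of other cell types were compared in the same libraries. Endothelial and endocardial markers rose in 6 of 8 and fell in 1, with summed levels of 1055 to 1087 CPM in controls and 1230 to 1261 CPM in MCKO. All 6 primitive red cell markers rose, from summed levels of 2932 to 3129 CPM to 5940 to 6290 CPM. Chamber muscle markers rose in 3 of 8 and fell in 4, summing to 3167 to 3298 CPM and 2671 to 2719 CPM. Markers of neural crest and mesenchyme, taken as 1 list, fell in 3 of 5 tested (Sox10, Twist1 and Sox9). Tfap2a and Prrx1 were not called, and Foxd3 was at 0 in all libraries. Foregut markers rose in 5 of 5 tested but summed to at most 13.3 CPM. Sox2 is counted among these 5 and also among the 2 neural markers that rose. The part of these cell types in the values of the 8 genes was not tested.

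For each of the 8 genes the gene with the most similar profile was found among 10137 autosomal protein-coding genes averaging 5 CPM or more, as the smallest root-mean-square difference between centred log2 CPM values over the 6 libraries. It was Trim63 for Hcn4 (difference 0.0155), Hs1bp3 for Cacna1c (0.012), Xpo5 for Cacna1d (0.0161) and Ncald for Cacna1g (0.0769). For the rest it was Lama5 for Cacna1h (0.0228), Ss18 for Cacnb2 (0.0075), Apbb1 for Popdc2 (0.0136) and Enc1 for Bves (0.0123). Lama5, for instance, went from 146 ± 16.8 to 266 ± 8.2 CPM.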

How the data were processed

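RNA from whole hearts was measured in 3 control and 3 MCKO libraries, made with a stranded mRNA kit per the labels' protocols. The deposited values are estimated counts per gene as whole numbers, not scaled for depth or length. Kallisto and mm10 are listed per the submitters' processing notes, which state neither their roles nor versions. Transcript set, strand setting, rounding and summing to genes: not given in the sources used here. Columns that read CKO were taken as the MCKO titles, which share their stage and number.

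A robust quasi-likelihood fit with group as the only term was made in edgeR 4.0.16 (R 4.3.3) after TMM scaling and the default low-count filter, with Benjamini-Hochberg adjustment over 14697 genes. SE values come from the F statistic. Gene models are GENCODE M21 on GRCm38. Levels per kb use the union of a gene's exons. Copies were searched with minimap2 2.31. The fit was also run on simulated data with a small set of genes changed, as many up as down. That run cannot test the scaling of libraries in which most genes change. Alternatives were DESeq2 1.42.0, other scalings and filters, a replicate block, a threshold of 0.01 and leaving out each library. A count of 3 corresponds to 0.0876 to 0.156 CPM, depending on the depth of the library. Replicates differed by more than sampling noise (chi-square per degree of freedom 3.58 to 15.4 within groups).

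The members and lists were chosen with earlier results of these data known. Named genes are the 8 members, up to 4 called genes of each pathway list by smallest p, the nearest profile of each member and Cdc42. Genes given as not called were named after their values were seen. Calr, Casq2, Asph and Pln, which that rule also takes, stand at log2 fold changes of -0.65, -2.00, 0.64 and -2.02, all called. Some genes that the rule takes are not reported here.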

Additional observations from a re-analysis of the deposited data

How the results depend on the processing

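Cacna1c, Cacna1d, Cacna1h and Bves kept their direction and call in all 14 alternatives, at 0.18 to 0.45, -0.53 to -0.23, 0.68 to 1.03 and -0.46 to -0.18 on the log2 scale. Scaled to the heart muscle list, Hcn4 at 0.1142 and Popdc2 at 0.08333 lost their calls, Cacnb2 turned to -0.2043, and 2 of the 8 genes rather than 4 were called higher. With library totals only Cacnb2 was at -0.0047, and the share of calls that were higher was 42.6%, from 50.2%. Cacna1g lost its call in DESeq2 at -0.5285 and at a threshold of 0.01 at -0.5215, and it ran from -0.672 to -0.3907 with 1 library left out. The cause of these losses was not tested, except that the stricter threshold gives fewer calls by construction. Over all genes 6664 to 9426 were called, and 7452 to 8695 with 1 library left out. With the replicate block, 7 of the 8 genes were called, as without it, with Hcn4 at 0.3737, Cacna1g at -0.5422 and Cacna1h at 0.9431, no call of a member changed, and over all genes 7765 were called. The numbers did not pair the libraries: deviations from the group means correlated at -0.00472, 0.0216 and -0.13 within a number. With the longest transcript as length, an alternative chosen after seeing the data, the control ranks of Cacnb2, Cacna1c and Cacna1d became 5, 6 and 7. Cacna1g had 44 to 105 counts a library, and the part of depth in its lost calls was not tested.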
